A study of Mus musculus with 4 samples.

Results

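The subunits of the SWI/SNF (BAF) remodellers, the ISWI and CHD remodellers and the Polycomb repressive complexes PRC1 and PRC2 were examined in the embryonic telencephalon. Members were chosen by gene symbol, with no measured value in the rule, and 56 of the 27293 named genes of the count table matched. They comprised 26 genes of the BAF and ISWI remodellers with Smarcad1, 9 CHD genes, 16 PRC1 genes and 5 PRC2 genes. Total RNA of telencephalic tissue was taken with Trizol from C57BL/6 embryos at embryonic day 13 (E13), and 2 µg of RNA went into each sequencing library. There were 2 libraries of wild type embryos (WT 1 and WT 2) and 2 of the genotype STINGf/f;Nestin-Cre (cKO 1 and cKO 2), in which Cre is driven by the Nestin promoter. This promoter is active mainly in neural progenitors, so that vessels, blood and meninges in the tissue are not its main target. The comparison asks how loss of STING, an adaptor of the cytosolic DNA sensing pathway, changes the transcriptome of the embryonic brain. Whether each library came from 1 embryo or a pool, and whether the WT embryos carried the floxed allele or Cre, was not given in the sources used here. The sample title of WT 2 ends in nes and that of WT 1 in wt. The genotype field of WT 2 reads WT, and the meaning of nes was not given in the sources used here.

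Chromatin remodellers of the BAF, ISWI and CHD families use ATP to move or evict nucleosomes, whereas PRC2 methylates histone H3 on lysine 27 and PRC1 binds that mark or ubiquitinates histone H2A to keep genes silent. In the developing cortex BAF complexes exchange subunits when progenitors leave the cell cycle, and PRC2 sets the timing of the change from neuron production to glia production. Mutations of several BAF and CHD genes, among them Arid1b and Chd8, are known from autism and intellectual disability.

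The deposited values were counts of reads per gene. Counts on genes summed to 17209654 to 18533391 per library, and the members held 1.01% to 1.05% of them. The targeted gene, listed as Tmem173, had 20 and 19 counts in the WT libraries and 18 and 22 in the cKO libraries, so that its counts did not separate the labels. WT and cKO therefore name libraries by their labels below, and values are listed in the order WT 1, WT 2, cKO 1, cKO 2. Radial glia markers summed to 2174 to 2381 CPM (counts scaled to equal library size with the TMM factors of edgeR) and cortical neuron markers to 5397 to 6394 CPM, with no gene of either list at 0. The intermediate progenitor markers summed to 796 to 894 CPM. Library WT 1 had the highest sum of all lists of non-neural cells. Its 6 choroid plexus markers summed to 47.9 CPM against 6.45 to 9.67 CPM in the other libraries. Its 8 markers of meninges and mesenchyme summed to 289 CPM against 40.2 to 76.2 CPM. Of the choroid plexus markers, Folr1 was at 0 in at least 1 library. Blood markers stood at 963 CPM in WT 1 against 440 to 668 CPM, endothelial markers at 184 against 118 to 137 CPM and microglia markers at 39.6 against 24.8 to 31.4 CPM. The part of these cells in the values below was not tested, and each count of calls is also given without WT 1.

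All 56 members were detected in every library, with 114 to 24161 counts, and all passed the filter on low counts. Levels between genes were compared as CPM per kb of exon. They spread over a wide range, from 1.67 for Pcgf5, a subunit of non-canonical PRC1, to 148 for Smarcc2, the scaffold subunit BAF170. In 13 of 17 sets of paralogs that fill the same or a like place, the same gene led in all 4 libraries, the exceptions being Ring1 and Rnf2, Brd7 and Brd9, Chd1 and Chd2, and the BAF45 genes. The length is the union of all annotated exons. Orders and shares of paralogs depend on this choice, and no other length was used.

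**Figure D1:**
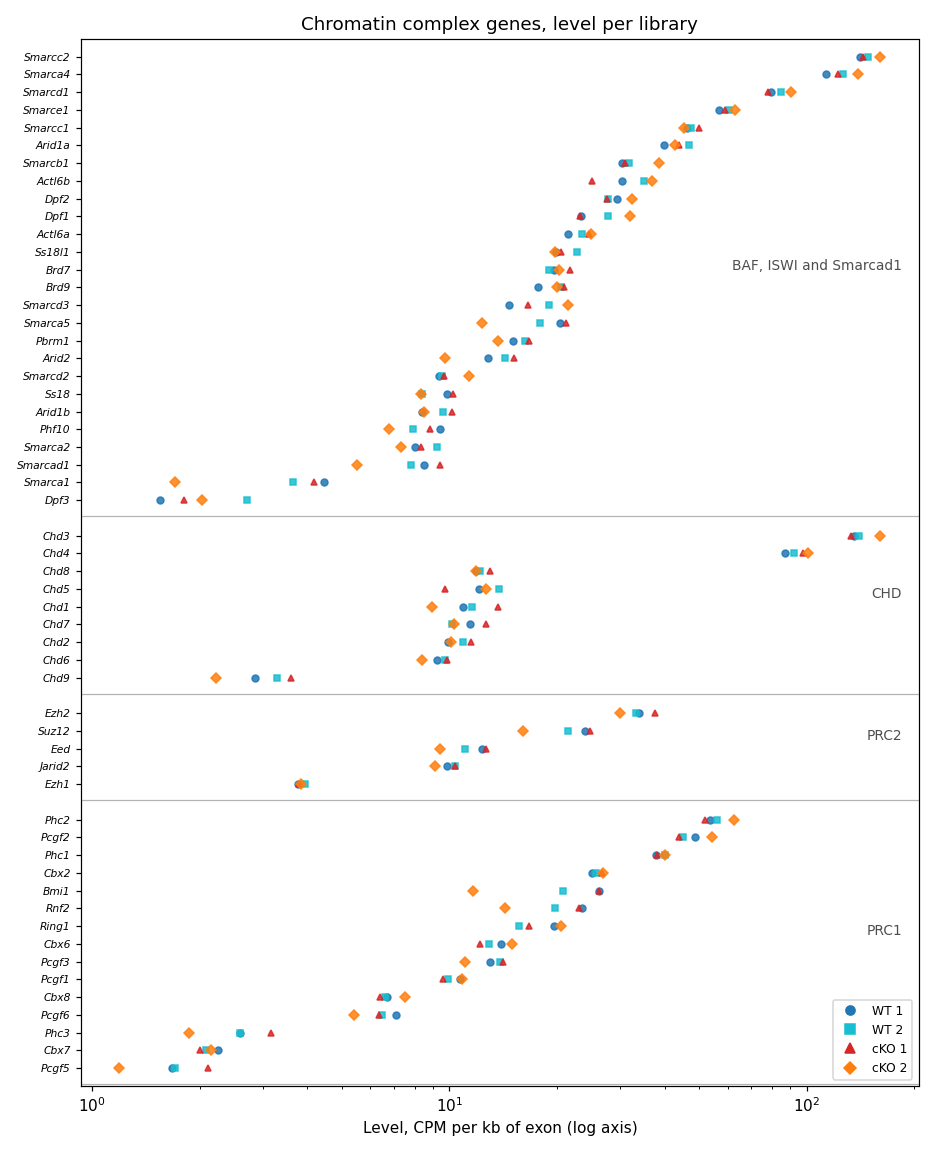
Level of 55 of the 56 members in CPM per kb of exon (log axis), with 1 point per library and genes ordered by mean level within each family. Mean levels run from 1.67 for Pcgf5 to 148 for Smarcc2, and the cKO 2 point of Bmi1 lies at 11.6 against 20.8 to 26.3 in the other libraries.

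Among the BAF genes, Smarca4 encodes BRG1, an ATPase that drives the complex. Its level was 734, 817, 793 and 899 CPM. Smarca2, which encodes the alternative ATPase BRM, was at 114, 132, 119 and 104 CPM. Per kb Smarca4 made up 93.2% to 94.99% of the sum of both ATPases, so that BRG1 transcripts led in each library. The log2 fold change of cKO over WT was 0.13 for Smarca4 (95% interval -0.25 to 0.50) and -0.14 for Smarca2 (-0.50 to 0.22), with overlapping groups in both.

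Smarcc2 had the highest level per kb of all members, at 782, 825, 796 and 893 CPM. It made up 74.2% to 78.0% of the pair with its paralog Smarcc1 (BAF155). Smarcd1 (BAF60A) held 73.4% to 76.8% of the 3 BAF60 genes. Arid1a, the DNA-binding subunit of canonical BAF, held 63.4% to 70.1% of the 3 ARID genes, ahead of Arid2, the corresponding subunit of the polybromo form PBAF. Brd7 of PBAF and Brd9 of non-canonical BAF stood at close levels on this scale, 20.1 and 19.8 CPM per kb, and their order differed between libraries. This rests on union exon lengths of 5244 and 6949 bases, while their longest coding transcripts have 3625 and 2430 bases. In CPM, without a length, Brd9 was above Brd7 in every library. Of the ISWI ATPases, Smarca5 (SNF2H) held 82.0% to 87.9% of the pair with Smarca1 (SNF2L).

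Neuronal BAF takes up ACTL6B, DPF1 or DPF3 and SS18L1 in place of ACTL6A, PHF10 or DPF2 and SS18. Actl6b was at 130, 149, 107 and 157 CPM, so that the cKO libraries held both its lowest and its highest value. Actl6a had 1447, 1684, 1751 and 1729 counts, with both cKO values above both WT values. Per kb the neuronal Actl6b made up 50.5% of the pair in cKO 1 and 58.7% to 59.8% in the other libraries. In bulk tissue, fewer cells of a type and less RNA per cell cannot be told apart.

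The log2 ratio of Actl6b to Actl6a was 0.64, 0.70, 0.16 and 0.70. The cKO mean minus the WT mean was -0.24 on the log2 scale, with cKO 1 lowest and cKO 2 between the WT values. Dpf1 (BAF45B) had 2178, 2752, 2275 and 3068 counts. Dpf3 (BAF45C) was scarce, with 114, 211, 140 and 153 counts, with WT 1 lowest and WT 2 highest. The log2 fold changes were -0.08 for Actl6b, 0.14 for Actl6a, 0.11 for Dpf1 and -0.15 for Dpf3, with 0 inside each 95% interval.

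For the progenitor side, Phf10 (BAF45A) had 806, 714, 795 and 594 counts, with cKO 2 lowest. Dpf2 (BAF45D) had 3318, 3321, 3273 and 3756 counts, with cKO 2 highest. The log2 ratio of Dpf1 plus Dpf3 to Phf10 plus Dpf2 was -0.85, -0.45, -0.75 and -0.43. Here both replicates numbered 1 were lower than both numbered 2, and the cKO mean differed from the WT mean by 0.05.

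Ss18l1, the calcium-responsive transactivator CREST, had 1504, 1815, 1630 and 1530 counts, and in CPM WT 2 was highest and cKO 2 lowest. Its progenitor counterpart Ss18 had 1615, 1451, 1763 and 1401 counts. The log2 ratio was -0.10, 0.32, -0.11 and 0.13, a difference between groups of -0.10. For each of the 3 ratios the two-sided exact permutation test gave p = 0.667, and with 2 libraries against 2 no p below 0.333 can be reached.

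**Figure D2:**
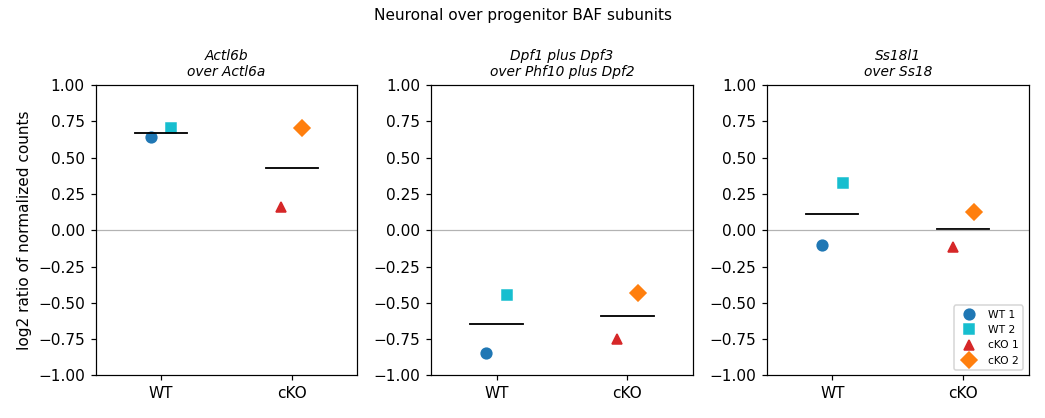
Log2 ratio of normalized counts of neuronal over progenitor BAF subunits in each library, with the group mean as a horizontal line, for the 3 places in the complex that are exchanged. For Actl6b over Actl6a cKO 1 lies at 0.16 while the other 3 libraries lie between 0.64 and 0.70, and in all 3 panels the groups overlap.

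Among the remodellers of the CHD family, Chd3 and Chd4 encode the ATPases of the NuRD deacetylase complex. Chd3 led the family per kb, with 19860, 21794, 20563 and 24161 counts, and in CPM cKO 1 was lowest and cKO 2 highest. Chd4 had 12129, 13591, 14301 and 14408 counts, so that its groups did not overlap. It had the largest positive log2 fold change of the family, 0.15 (95% interval -0.21 to 0.50). Per kb Chd3 made up 55.4% to 58.6% of the NuRD ATPases, and the neuronal paralog Chd5 made up 4.06% to 5.60%.

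Chd5 was at 116, 132, 93.4 and 121 CPM. It had the largest negative log2 fold change of the family (-0.21, 95% interval -0.61 to 0.20). Its cKO 2 value lay between the WT values, and its lowest value came from cKO 1, as did that of Actl6b. The 8 markers of the ventral telencephalon, where GABA neurons arise, were also lowest in cKO 1 in sum, at 649 CPM against 972 to 1017 CPM in the other libraries, and their part in the values of Chd5 and Actl6b was not tested. Chd8, an autism gene, and Chd7, mutated in CHARGE syndrome, were at 12.2 and 11.1 CPM per kb, and their log2 fold changes were 0.05 and 0.09. Chd1 binds histone H3 methylated on lysine 4, and its annotated gene spans 1689.9 kb in the deposited table. Its annotated exons cover 8721 bases in GENCODE M21. Whether its counts hold reads of other genes in this span was not tested, and the strand setting of the counting was not given in the sources used here.

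Of the PRC2 genes, Ezh2 encodes the main methyltransferase of dividing cells and Ezh1 that of resting cells. Ezh2 was at 226, 222, 252 and 201 CPM, and both the highest and the lowest value came from cKO libraries. Ezh1 was nearly flat, at 28.0, 29.4, 28.3 and 28.5 CPM. Ezh2 made up 88.7% to 90.8% of the pair per kb.

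Suz12 encodes the subunit that holds the PRC2 core together, and it had 2058, 1952, 2244 and 1417 counts, highest in cKO 1 and lowest in cKO 2. Eed, the reader of methylated lysine 27, had 822, 780, 885 and 642 counts and showed the same order of the cKO libraries. Jarid2, which guides PRC2 to chromatin, had 1663, 1855, 1842 and 1584 counts. Of the 5 PRC2 genes, 4 had their lowest value in cKO 2, the exception being Ezh1. The log2 fold changes of the family lay between -0.15 (Suz12) and 0.02 (Ezh2), with a median of -0.05.

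In PRC1, RING1 and RNF2 (RING1A and RING1B) are the ligases that ubiquitinate histone H2A. Rnf2 was at 96.8, 81.6, 95.2 and 59.1 CPM. Ring1 had 1104, 933, 989 and 1192 counts, with cKO 2 highest where Rnf2 was lowest. Per kb Rnf2 made up 54.5%, 55.9% and 58.0% of the pair in WT 1, WT 2 and cKO 1 and 41.0% in cKO 2, the library in which the order of the 2 ligases turned.

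The PCGF subunits set the type of PRC1. Pcgf2 (MEL18) led them with 48.0 CPM per kb, ahead of Bmi1 (PCGF4), a regulator of neural stem cell renewal, with 21.2. Bmi1 had 1815, 1521, 1904 and 827 counts, or 93.5 ± 15.4 CPM in WT and 75.2 ± 40.9 CPM in cKO (SD, n = 2 each), and cKO 1 lay close to WT 1. Its share of the PCGF genes per kb was 21.2% to 25.6% in 3 libraries and 12.3% in cKO 2. Pcgf6, found in a non-canonical PRC1 of germ cell gene silencing, had 619, 598, 583 and 486 counts, and was the 1 member with both cKO libraries below both WT libraries.

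Of the CBX readers of methylated lysine 27, Cbx2 led with 48.1% to 52.2% of the CBX genes per kb. This rests on union exon lengths of 4257 bases for Cbx2 and 10609 for Cbx6. In CPM, without a length, Cbx6 was above Cbx2 in every library. Phc2, a polyhomeotic subunit that lets PRC1 polymerize, had the highest level per kb of PRC1, 56.0, with 6564, 7288, 6714 and 7896 counts. Phc1 followed with 39.0 and Phc3 with 2.55 CPM per kb.

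Between the groups no member passed a threshold. A gene was called when its fold change reached 2 with an unadjusted p of 0.05 or less, and 0 of 56 members met this, beside 131 of 16145 genes tested (0.811%). By that p alone the count was again 0 of 56, beside 199 of all genes (1.23%). At an adjusted p under 0.05 (quasi-likelihood test of edgeR, adjusted by Benjamini-Hochberg) the count was 0 for the members and for all genes (0.00%), and DESeq2 also gave 0, with 127 genes and 0 members at an unadjusted p of 0.05 or less. Every member had an adjusted p of 0.9999 in the edgeR fit. The median log2 fold change was 0.01 over the members and -0.01 over all genes tested, with 26 members below 0 and 30 above.

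The 95% interval of the log2 fold change lay within a 2-fold change in either direction for 54 of 56 members (96.4%), against 70.2% of all genes tested. These shares were not matched for level, and intervals narrow with higher counts. The members had a median of 14.5 CPM per kb and at least 114 counts, against 5.02 CPM per kb and counts down to 0 over all genes. The exceptions were Smarca1 (-0.46, interval -1.32 to 0.40) and Bmi1 (-0.31, interval -1.08 to 0.45). The BAF, ISWI and Smarcad1 genes had a median of 0.03, and Smarcd3 (BAF60C) had the largest positive value of all members, 0.18 (-0.27 to 0.62), with 1303, 1793, 1557 and 1961 counts. Medians were 0.05 for the CHD genes and -0.005 for PRC1. A value within these intervals is not shown to be 0.

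**Figure D3:**
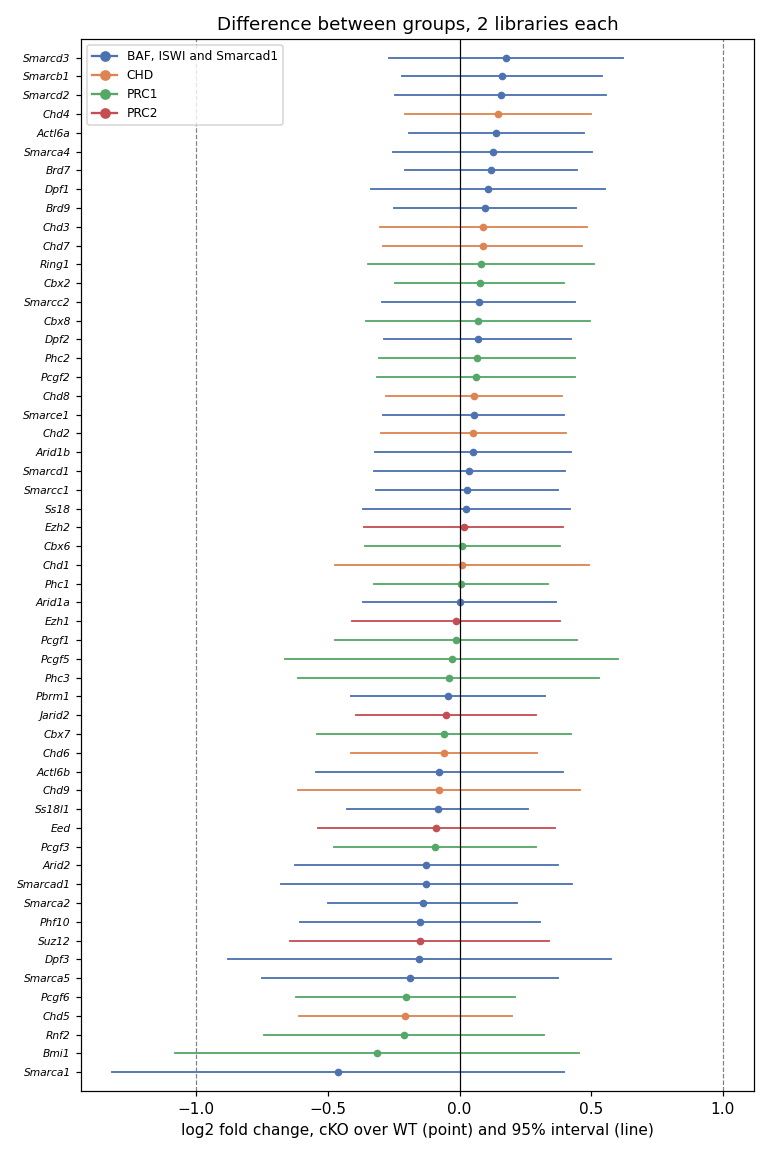
Log2 fold change of cKO over WT (point) with its 95% interval (line) for 55 of the 56 members, coloured by family, with dashed lines at a 2-fold change. The intervals of Smarca1 (-1.32 to 0.40) and Bmi1 (-1.08 to 0.45) cross the lower dashed line, and every interval shown includes 0.

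Groups that do not overlap were few. Both cKO libraries lay above both WT libraries for 5 members, Chd4, Actl6a, Cbx2, Brd7 and Smarcd2, or 8.93% of the 56, while 11.0% of all genes tested showed this. Both lay below for Pcgf6 alone, or 1.79%, while 10.8% of all genes did. In the other 50 members the groups overlapped.

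Libraries of the same label differed most between cKO 1 and cKO 2. Over the 56 members the SD of the log2 ratio of cKO 2 to cKO 1 was 0.416, that of WT 2 to WT 1 was 0.193, and that of the fitted cKO over WT values, which compare means of 2 libraries and so vary less by construction, was 0.126. Over all genes tested, which include genes of far lower counts than any member, the same SDs were 0.605, 0.528 and 0.326. For the members the median size of these log2 ratios was 0.260, 0.119 and 0.0796 in the same order. Library cKO 2 was the lowest of the 4 for 23 members (33.4% of all genes) and the highest for 21 members (33.6% of all genes).

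Smarca1 showed the largest ratio between libraries of 1 label. It encodes the ISWI ATPase SNF2L and had 475, 410, 468 and 186 counts, or 24.8 ± 3.57 CPM in WT and 17.99 ± 10.7 CPM in cKO (SD, n = 2 each). Its log2 ratio of cKO 2 to cKO 1 was -1.29, and Bmi1 followed with -1.17. In all, 11 members were at least 1.5-fold lower in cKO 2 than in cKO 1 (19.6%, beside 14.2% of all genes), and 2 were at least 2-fold lower (3.57%, beside 5.64%). No member was at least 1.5-fold higher in cKO 2, beside 7.76% of all genes. Between the WT libraries 1 member differed by that much, Dpf3, which was higher in WT 2 (1.79%, beside 4.24% of all genes).

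These 11 members came from every family. They were Smarca1, Smarca5, Smarcad1 and Arid2 among the remodellers of the first family, Chd1 and Chd9 of the CHD genes, Bmi1, Pcgf5, Phc3 and Rnf2 of PRC1 and Suz12 of PRC2. They share a low GC content of their transcripts, 39.5% to 45.9%, a feature that the choice of members did not use. Pbrm1, Pcgf3, Ss18 and Ezh2 lie in the same range and were lower in cKO 2 by less than 1.5-fold.

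To show this feature, a 120-base coding stretch is given for the 2 members lowest in cKO 2 against cKO 1 (Smarca1 and Bmi1) and the 2 highest (Actl6b and Dpf1). Each is the window within a coding exon whose GC content is nearest to that of the longest coding transcript, with G and C in capitals, read 5′ to 3′ on the gene's strand in GRCm38. The stretch of Smarca1 lies in exon 6 of 23 at chrX:47879497-47879616 on the minus strand, that of Bmi1 in exon 10 of 10 at chr2:18684354-18684473 on the plus strand, that of Actl6b in exon 3 of 14 at chr5:137554559-137554678 on the plus strand and that of Dpf1 in exon 4 of 12 at chr7:29311265-29311384 on the plus strand.
Smarca1: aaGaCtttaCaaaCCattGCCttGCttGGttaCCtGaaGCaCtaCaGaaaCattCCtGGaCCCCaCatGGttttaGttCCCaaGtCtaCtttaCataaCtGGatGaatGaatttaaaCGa
Bmi1: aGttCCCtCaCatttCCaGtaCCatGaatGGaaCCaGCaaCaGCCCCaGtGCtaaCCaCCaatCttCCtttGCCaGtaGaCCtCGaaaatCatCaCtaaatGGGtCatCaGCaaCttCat
Actl6b: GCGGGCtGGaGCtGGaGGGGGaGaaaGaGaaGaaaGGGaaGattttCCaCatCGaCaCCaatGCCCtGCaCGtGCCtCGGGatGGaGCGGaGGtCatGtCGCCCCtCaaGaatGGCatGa
Dpf1: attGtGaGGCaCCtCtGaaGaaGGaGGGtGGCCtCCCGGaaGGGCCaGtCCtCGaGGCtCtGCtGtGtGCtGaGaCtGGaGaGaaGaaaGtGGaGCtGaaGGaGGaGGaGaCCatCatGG

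The window held 39.2% G and C in Smarca1, 45.8% in Bmi1 and 58.3% in both Actl6b and Dpf1. The whole transcript of Bmi1 stood at 40.2%, since its 3′ UTR of 2148 bases holds 32.4%, while its coding part holds 43.9%. In Actl6b the coding part holds 56.8%. The log2 ratio of cKO 2 to cKO 1 was 0.56 for Actl6b and 0.47 for Dpf1, against -1.29 for Smarca1 and -1.17 for Bmi1.

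Across all 56 members the log2 ratio of cKO 2 to cKO 1 rose with transcript GC content (Spearman's rho 0.893, Pearson's r 0.891). The points are genes measured in the same 2 libraries and are not replicates, so the value is a description. Over all 13689 genes with a GC content rho was 0.665. For WT 2 over WT 1 it was 0.367 over the members and 0.154 over all these genes. For cKO over WT rho was 0.564 over the members and 0.306 over all these genes, with cKO 2 in the cKO mean. The GC content of the coding part alone gave rho 0.771 for cKO 2 over cKO 1 and that of the 3′ UTR gave 0.855, while transcript length gave -0.409.

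**Figure D4:**
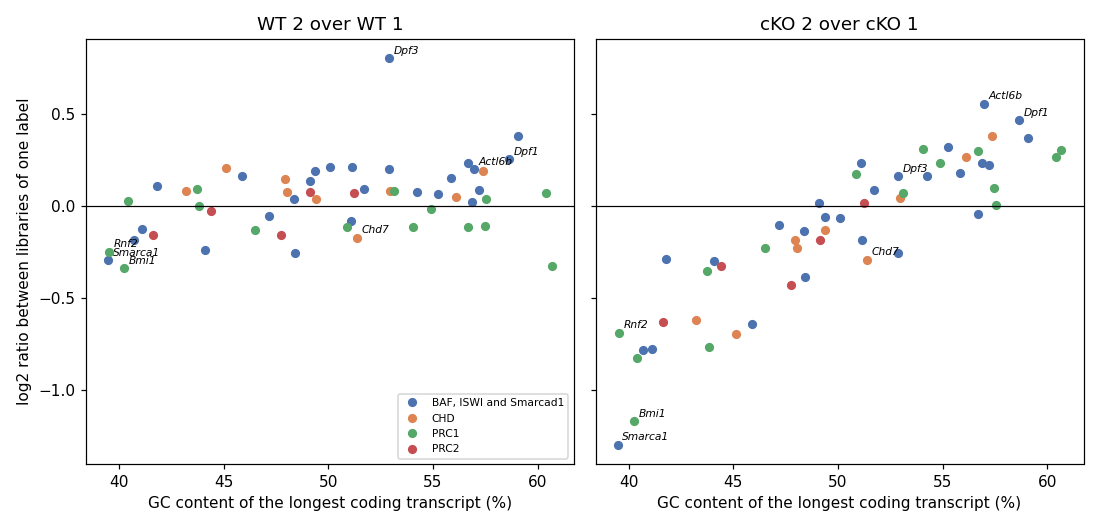
Log2 ratio between the 2 libraries of each label against the GC content of the longest coding transcript (%), with 1 point for each of 55 members coloured by family. For cKO 2 over cKO 1 the points climb from -1.29 (Smarca1) to 0.56 (Actl6b), with rho 0.893, while for WT 2 over WT 1 rho is 0.367 and Dpf3 lies highest.

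Divided by GC content, the 19 members with the lowest values (39.5% to 47.9%) were all lower in cKO 2 than in cKO 1, with a median log2 ratio of -0.63, and 17 of them had cKO 2 as their lowest library. The 18 members in the middle (48.0% to 53.1%) had a median of -0.06. Of the 19 with the highest GC content (54.0% to 60.7%), 1 was lower in cKO 2, the median was 0.27, and cKO 2 was the highest library for 16. The log2 fold change of cKO over WT had a median of -0.09, 0.02 and 0.07 in the 3 sets. The shares of all genes in the same GC ranges were not counted.

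The paralogs whose shares moved in cKO 2 differ in this feature. Rnf2 has a GC content of 39.5% and Ring1 of 60.7%, and Bmi1 one of 40.2% against 54.0% in Pcgf2. An offset for GC content, chosen after seeing the data, was estimated from the trend on GC content in these same 4 libraries. Smaller ratios with it therefore follow in part by construction. With this offset in the fit, the median log2 ratio of cKO 2 to cKO 1 was -0.17, -0.08 and -0.03 in the low, middle and high sets. In that fit the log2 fold change of cKO over WT was -0.31 for Smarca1, -0.18 for Bmi1, -0.02 for Suz12 and -0.002 for Rnf2. It called 0 members, beside 100 of 13689 genes.

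**Figure D5:**
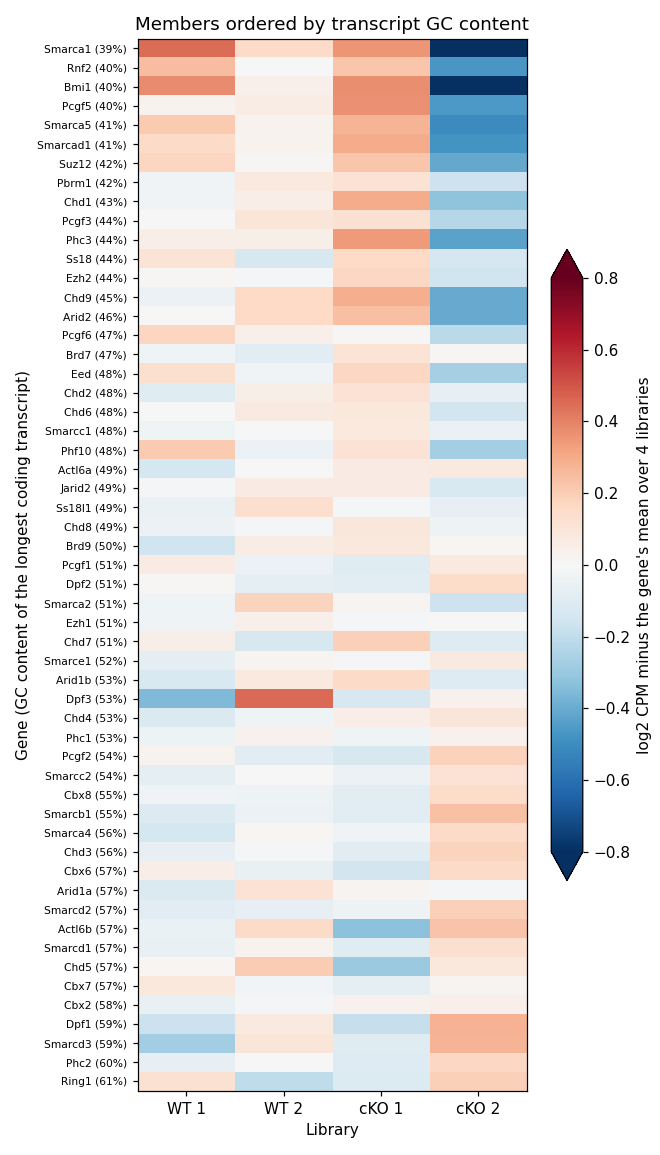
Log2 CPM of each of 55 members minus its mean over the 4 libraries (colour), with members ordered from the lowest to the highest GC content of the transcript. In the column of cKO 2 the 19 members with the lowest GC content are all lower than in cKO 1.

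The promoters did not show this relation. Promoter sequences (250 bases before to 50 after the start, RefSeq, GRCm38.p6) matched 46 of 56 members, and those without an entry include Arid2, Cbx2, Chd1, Chd2, Chd3, Chd7, Pcgf1, Smarce1 and Ss18. The first entry was taken for each symbol. Over the 46 members the GC content of the promoter and the log2 ratio of cKO 2 to cKO 1 had a rho of 0.0724. The dinucleotide CG, the motif of CpG islands, reads the same on both strands, and member promoters held a median of 26.5 of them against 7 in all 27025 promoters. At least 10 CG were found in 93.5% of the member promoters and in 43.9% of all.

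The promoters of Bmi1 (chr2:18676768-18677067, plus strand) and Actl6b (chr5:137553296-137553595, plus strand) are shown because their transcripts stand at opposite ends of the ratio while each promoter holds 23 CG, in capitals. At least as many occur in 21.6% of all promoters. The GC content was 66.3% for Bmi1 and 61.7% for Actl6b.
Bmi1 promoter: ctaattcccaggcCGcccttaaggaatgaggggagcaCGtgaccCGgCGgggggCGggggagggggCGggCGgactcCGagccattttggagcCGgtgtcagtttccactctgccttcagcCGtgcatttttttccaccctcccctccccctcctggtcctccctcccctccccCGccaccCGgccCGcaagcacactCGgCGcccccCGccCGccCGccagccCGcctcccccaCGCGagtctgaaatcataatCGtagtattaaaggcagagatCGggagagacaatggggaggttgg
Actl6b promoter: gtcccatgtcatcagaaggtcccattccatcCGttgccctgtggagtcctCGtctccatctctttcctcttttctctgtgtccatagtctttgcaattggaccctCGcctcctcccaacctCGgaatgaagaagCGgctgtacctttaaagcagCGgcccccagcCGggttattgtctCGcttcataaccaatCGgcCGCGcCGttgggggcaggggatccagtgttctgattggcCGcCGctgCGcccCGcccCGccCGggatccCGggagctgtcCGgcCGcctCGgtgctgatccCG

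Because the cKO libraries differed from each other, the comparison was repeated without each library. This leaves 1 library in that group and takes its spread from the others. The 11 lower members counted below without cKO 1 are those listed above, at least 1.5-fold lower in cKO 2 than cKO 1. In that fit cKO 2 is the only cKO library, so they are not a second finding. Without cKO 1, 2 of 56 members were called lower in cKO, Smarca1 (log2 fold change -1.25) and Bmi1 (-1.01), beside 3.20% of all genes. At an unadjusted p of at most 0.05 the count was 12 members (21.4%), beside 15.4% of all genes, and 11 of them were lower (19.6%, beside 10.1%). None of them had an adjusted p under 0.05 (smallest 0.0786 for Bmi1, quasi-likelihood test of edgeR, Benjamini-Hochberg).

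Without cKO 2, 0 members were called (0.688% of all genes) and 3 reached an unadjusted p of at most 0.05 (2.52% of all genes). They were Chd5 (-0.39) and Actl6b (-0.37), lower in cKO 1, and Chd1 (0.30), higher. Smarca1 then stood at 0.06 and Bmi1 at 0.17, and 28 of 56 members changed direction. The share of all genes that did so was not counted. Without WT 1 or without WT 2 the count of called members was 0 (0.619% and 2.37% of all genes). With the replicate number as a block 0 members were called (1.29% of all genes) and 2, Smarca1 and Bmi1, reached an unadjusted p of 0.05 or less (3.57%, beside 3.31% of all genes). A direction held by both cKO libraries is therefore not shown for Smarca1 or Bmi1.

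Over the 9 alternatives fixed for the comparison, 13 of 56 members kept their direction. Those below 0 were Cbx7, Chd5, Pcgf6 and Smarca2. Those above 0 were Actl6a, Brd7, Cbx2, Chd4, Smarca4, Smarcb1, Smarcc2, Smarcd2 and Smarce1. None of these 13 reached the 2-fold threshold in any of the fits. The share of all genes tested that kept their direction was not counted. The 13 include Pcgf6 and the 5 members with both cKO libraries above both WT libraries. Where groups do not overlap, leaving out 1 library can hardly turn the direction, so this count in part repeats that result.

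Other genes of the same complexes were examined as 7 lists of 50 genes, namely accessory subunits of PRC1 and PRC2, the deubiquitinase PR-DUB, H3K27 demethylases, further BAF and NuRD subunits and partners of ISWI. All 50 were tested, 0 were called and 0 had an unadjusted p of 0.05 or less (0.811% and 1.23% of all genes). Their median log2 fold change was 0.02, with 22 below 0 and 28 above. The list medians lay between -0.24 for the 2 H3K27 demethylases and 0.06 for the 11 NuRD subunits. The 2 demethylases had opposite signs, with Kdm6a at -0.56 and Kdm6b at 0.08.

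Kdm6a, the X-linked demethylase of lysine 27, had the largest negative value of the partners. It had 561, 906, 642 and 362 counts, and its log2 fold change was -0.56 (95% interval -1.25 to 0.13). The groups overlapped, and the highest value came from WT 2. Summed over Uty, Kdm5d, Eif2s3y and Ddx3y, genes of the Y chromosome, the libraries had 2735, 0, 3002 and 1848 counts, and the part of embryo sex in the value of Kdm6a was not tested.

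Epop, a PRC2 accessory subunit, had the largest positive value (0.30, interval -0.14 to 0.74), with 390, 456, 478 and 571 counts. Mtf2, another PRC2 accessory subunit with a transcript GC content of 38.2%, had 1240, 987, 1278 and 421 counts, and was named after its values were seen. Over the 50 partners rho between GC content and the log2 ratio of cKO 2 to cKO 1 was 0.817. Without cKO 1 Kdm6a and Mtf2 were called, and without any other library 0 partners were.

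Hox genes are textbook targets of Polycomb silencing and are kept off in the forebrain. The table lists 4 of them, and the others were not analysed here. Hoxc4, Hoxc5 and Hoxd8 each had 1 count, in WT 1, and Hoxc6 had 2 counts, in cKO 2. A count of 0 leaves room for up to 3 counts, here 0.162 to 0.174 CPM, and no Hox gene of the table exceeded it in any library. The limit covers counting error only.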

How the data were processed

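Bulk RNA-seq of 4 libraries of E13 telencephalic tissue was analysed, 2 WT and 2 cKO, grouped by the sample labels. The authors aligned the reads and deposited raw counts per gene, and the submitters' processing notes name Bowtie2 2.2.3, TopHat2 2.0.12, HTSeq 0.6.0 and the build mm9. Positions were read as GRCm38, since 97.3% of the 27232 genes shared with GENCODE M21 match its start or end within 1 base. From the 27304 rows of the 4-library table, 11 blank rows (0.0403%) were left out, and the authors' own fold changes, p-values and normalized means in the files were not used. A second deposited table of cKO 1 and WT 1 shares 21342 genes with it, all with identical counts.

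The members are all genes matching the symbol rule, and they and the partner, Hox and marker lists were chosen with earlier results of these data known. Counts were fitted with edgeR 4.0.16 in R 4.3.3 (quasi-likelihood test on TMM-scaled counts with the default low-count filter and without covariates) for 16145 genes, with Benjamini-Hochberg adjustment over all of them. The procedure was run on simulated counts with large planted changes and no GC trend, which does not test it for small changes. Alternatives were RLE factors, other filters on low counts, DESeq2 1.42.0, a replicate block and leaving out each library. A GC content offset (spline with 5 degrees of freedom) was added after the data were seen. Levels per kb used the union of annotated exons. GC content is that of the longest coding transcript. Ratios of BAF subunits had a pseudocount of 0.5 counts and an exact permutation test (scipy 1.17.1), for which 0.333 is the smallest p. No source says that the libraries came from separate embryos, so p-values measure the spread between these libraries only, which may be technical.

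Values in every library were given by rule for the exchanged BAF subunits, Smarca2, Smarca4 and the PRC2 genes, and per family for the highest level per kb and the extreme log2 fold changes. The rule also covered members at an unadjusted p of at most 0.05 or not passing the filter, the largest ratio within a label, and the extremes of the partner lists. Other genes with values in every library were named after their values were seen. For 1 member covered by the rule, its own values are not reported here, while counts and medians over the members include it.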

Additional observations from a re-analysis of the deposited data

How the results depend on the processing

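A stricter p threshold on the main fit could only give 0 called members, since 0 members had an unadjusted p of at most 0.05. The count of called members was 0 under RLE normalization, both other filters on low counts, DESeq2 and the GC content offset. It was also 0 at an unadjusted p of at most 0.05 with no fold threshold. Without each library in turn it ran from 0 to 2 for the members and from 0 to 2 for the partners, and both counts of 2 came without cKO replicate 1 (Smarca1 -1.25, Bmi1 -1.01 on the log2 scale). The cause was not tested. In the alternatives that kept all 4 libraries, the count at an adjusted p under 0.05 stayed 0 for the members. Over all genes that count was 65 where genes needed only 1 count in some library, 5 with the replicate block and 0 in the others. The Hox genes did not pass the main filter, and 0 were called where 1 count in some library was enough. The median log2 fold change of the members ran from -0.03 to 0.05 over the leave-outs. Over the same leave-outs the difference of cKO minus WT in the log2 ratio of exchanged BAF subunits ran from -0.51 to 0.03 for Actl6b over Actl6a, from -0.15 to 0.25 for Dpf1 plus Dpf3 over Phf10 plus Dpf2 and from -0.32 to 0.11 for Ss18l1 over Ss18, so that each difference changed sign. Where genes needed only 1 count in some library, 405 genes were called instead of 131, of which 0 were members. With DESeq2 65 genes were called, with at least 10 counts in every library 72 and with RLE factors 127. With the GC content offset 100 of 13689 genes were called. Same-numbered libraries deviated together with a correlation of 0.108, and no label says that a number marks a litter or batch, so they were not taken as paired. With the replicate block 208 genes and 0 members were called, 2 members (Smarca1 and Bmi1) had an unadjusted p of at most 0.05 beside 3.31% of all genes, and the median log2 fold change of the members was 0.005. With 2 libraries per group, no member had an interval that excluded 0, which does not show that the groups are alike.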
